A study of Rattus norvegicus with 20 samples.

Results

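The uninjured vocal fold of the rat was profiled in 5 control animals, on 5 of the 20 arrays of the series. Members were the probe sets that the platform annotation gives 1 gene symbol, 15049 of 24871, which stand for 15037 genes. They were ranked by the mean log2 signal over the 5 control arrays and by the standard deviation (SD) between these arrays. A control here is a male Sprague-Dawley rat of 14 to 16 weeks whose vocal folds were not injured. The other 15 animals, of the same strain, sex and age, had vocal folds taken 1, 4 or 8 weeks after injury, 5 at each time. They enter only where the spread of the arrays is set beside that of the controls, and no test against injury was made. The folds of both sides were dissected and RNA was taken from the whole piece, so each value is a mixture of all layers that came with it, and in such bulk tissue fewer cells of a type and less RNA per cell cannot be told apart. A log2 signal is the brightness of a probe set after RMA processing, where a difference of 1 is a 2-fold difference in brightness. Probes bind with different strength, so the rank of one gene above another orders brightness and not the number of transcripts.

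The vocal fold is a mucosa stretched over muscle. A stratified squamous epithelium covers the vibrating edge, with ciliated and secretory airway epithelium and seromucous glands close by. Fibroblasts below it make the lamina propria, a loose matrix of collagens, elastin and proteoglycans, and the fast-contracting thyroarytenoid muscle forms the body of the fold, between the laryngeal cartilages.

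Control 3 stood apart from the other 4 arrays as a whole. Its median over all probe sets was 4.58, against 4.87 to 4.94 in the other controls, and its upper quartile was 5.87 against 6.30 to 6.39. As deposited, control 3 held the lowest of the 5 values for 79.1% of the 7518 genes whose mean was above the median of all genes (5.16, called the floor below). Counts of list members highest or lowest in an animal are therefore given after quantile normalization, which gives each array the same distribution. The deposited scale is named where a count uses it. Values of single genes, list medians and the orders read from them are as deposited, so control 3 tends to be low in them. The hybridization control signals averaged 9.06 to 9.79 on the control arrays and 10.1 to 10.6 on the injured arrays, and their part in any value was not tested. A gene was counted as above background where it was brighter than the brightest of 23 background probe sets on each of the 5 arrays, which held for 5625 genes or 37.4%. With the 95th percentile of the negative normalization controls as the limit, which was chosen after seeing the data and lay between 6.52 and 6.78, 2197 genes or 14.6% passed, so calls for genes with values near 6 depend on the limit.

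The brightest named gene of the uninjured fold encodes a secreted airway protein. Probe sets with no single gene name were left out of this order. Scgb3a1, a secretoglobin of airway secretory cells, had log2 signals of 12.70, 12.84, 10.97, 11.36 and 12.78 in controls 1 to 5, a mean of 12.13 ± 0.89 (SD, n = 5). Controls 1, 2 and 5 lay close together, and controls 3 and 4 were lower. After it came genes of general upkeep and of several layers at once: the elongation factor Eef1a1 (11.99 ± 0.13), the ribosomal protein gene Rps29 (11.76 ± 0.08), the cytoskeletal actin Actb (11.70 ± 0.08), Dcn, which encodes the collagen-binding proteoglycan decorin (11.66 ± 0.17), and S100a11 (11.56 ± 0.16). The pituitary hormone gene Prl was at rank 7 (11.44 ± 0.75). Skeletal muscle followed with alpha-actin Acta1 (11.43 ± 0.75) and Atp2a1, the calcium pump of fast fibres (11.34 ± 0.68). Lipf, the lipase that serous glands of the rodent tongue secrete, was at rank 11 (11.25 ± 1.40), and the keratins Krt4 and Krt15 of stratified squamous epithelium were at ranks 14 and 16 (11.09 ± 0.21 and 11.04 ± 0.21). The glycolytic muscle enolase Eno3 (10.92 ± 0.77), the salivary protein gene Csap1 (10.80 ± 1.16), the fast myosin light chain Myl1 (10.72 ± 0.75) and the club cell secretoglobin Scgb1a1 (10.62 ± 1.30) were also among the 30 brightest.

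**Figure D1:**
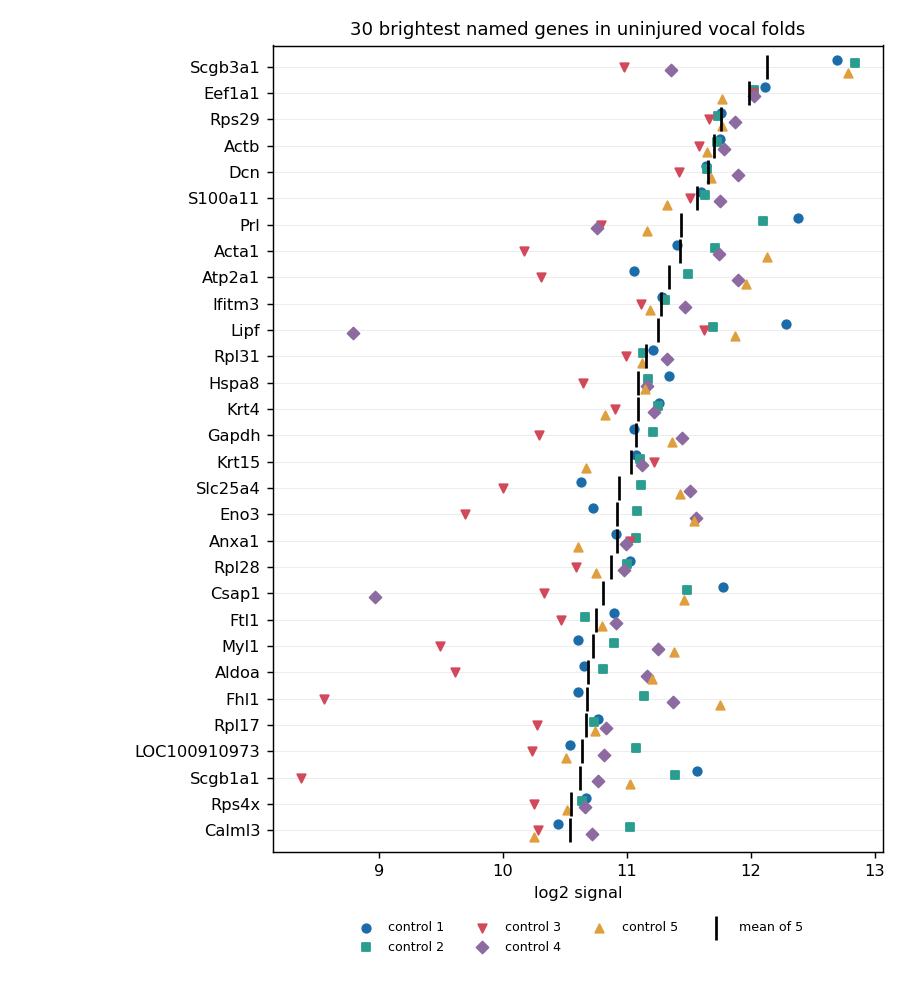
Log2 signal (horizontal axis) of the 30 brightest named genes in each of the 5 uninjured animals, in order of their mean, with a black bar at the mean. Ribosomal and cytoskeletal genes such as Rps29 and Actb have their 5 points close together, while Scgb3a1, Prl, Lipf, Csap1 and Scgb1a1 spread over 1 log2 unit or more and the muscle genes have control 3 as the lowest point.

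The top of the order was shared only in part between animals. Of the 100 brightest genes, 51 were among the 100 brightest on each of the 5 arrays, with 84, 92, 79, 91 and 78 of them so on controls 1 to 5. Between pairs of arrays, Spearman's rho across the 15037 genes lay between 0.955 (controls 3 and 5) and 0.985 (controls 1 and 2). This is a description across genes, which share each array and are not independent. By function, 12 of the 100 brightest were in the list of cytosolic ribosomal protein genes, which also holds Eef1a1, 8 were fast fibre genes, 6 were secretory products, 3 were squamous epithelial genes, 3 were matrix genes of the lamina propria, and 55 belonged to none of the 38 lists used.

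Each layer was then read from a list of its genes. Members in the brightest 10% of named genes (mean above 7.46) and members above background (37.4% of all named genes) were counted. The fast fibre list had 15 of its 18 measured members in the brightest 10%, the shared sarcomere list 12 of 18, the squamous epithelium list 16 of 24, the secretory list 13 of 31, the lamina propria list 18 of 43 and the list of gland ion and water transport 7 of 18. Slow fibre genes had 4 of 12 there, cornified envelope genes 6 of 18, endothelial genes 6 of 26 and macrophage genes 5 of 27. Motile cilia had 1 of 22, and cartilage had 0 of 23. All 38 measured genes of the ribosomal list were in the brightest 10%.

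**Figure D2:**
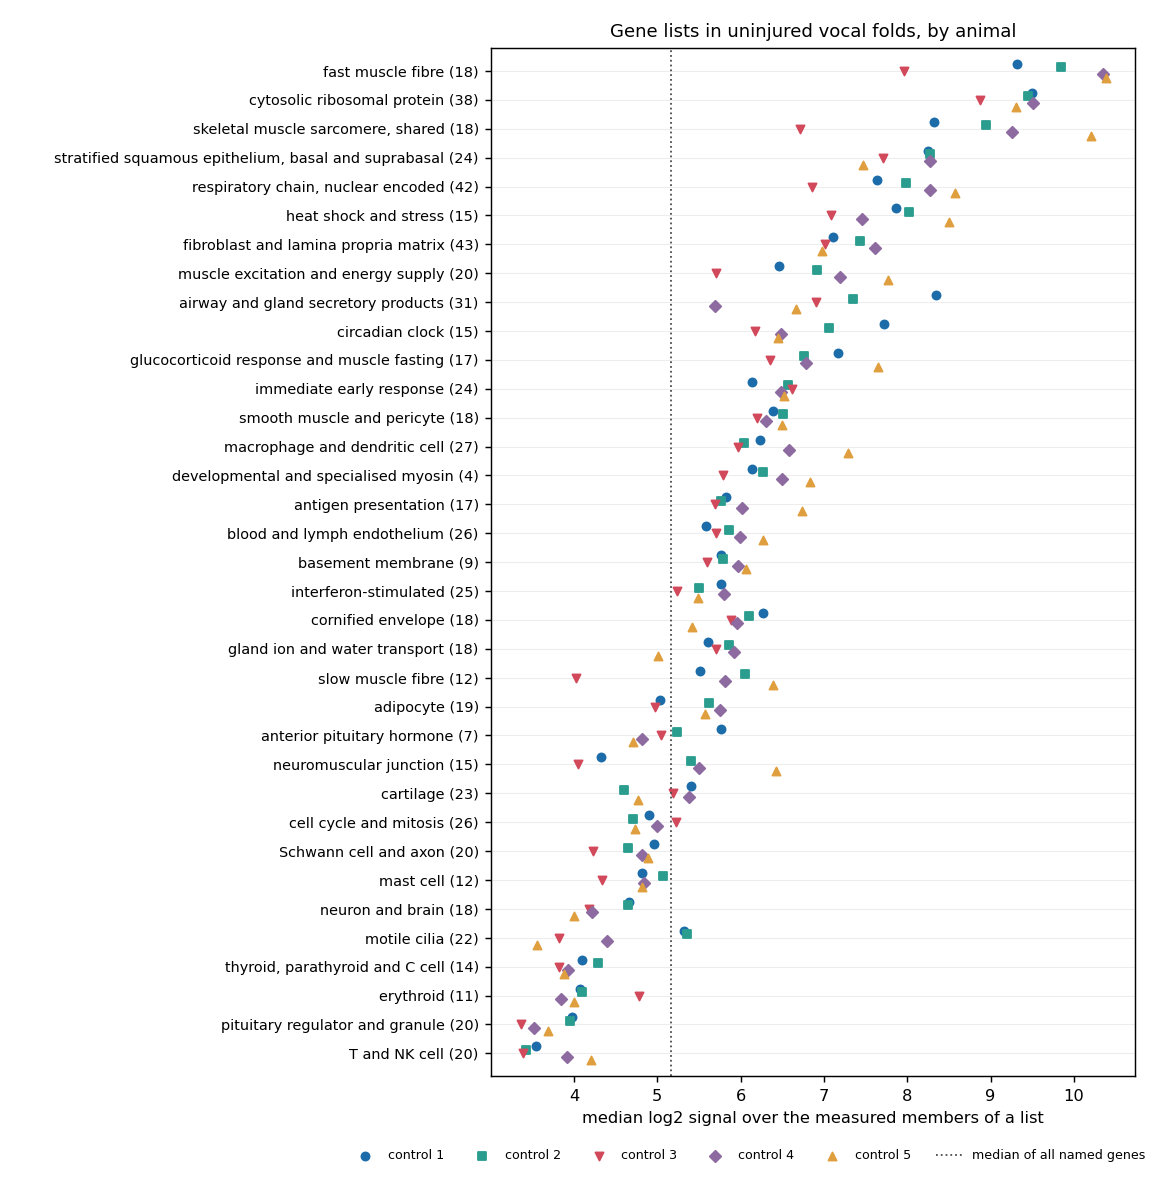
Median log2 signal over the measured members of each gene list with 3 or more members above the floor (vertical axis, number measured in brackets), with 1 point for each uninjured animal and a dotted line at the median of all named genes (5.16). The skeletal muscle lists and the respiratory chain list run from control 3 at the low end to control 5 at the high end, the secretory list is highest in control 1, and the smooth muscle list has its 5 points within 0.31.

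Skeletal muscle genes differed widely between animals, in large part through control 3. The shared sarcomere list, whose products build the thin and thick filaments and the Z-disc of every striated fibre, had medians of 8.32, 8.94, 6.71, 9.26 and 10.20 in controls 1 to 5. Control 3 was 1.61 below the next animal and control 5 was 0.94 above the next. Acta1 had 11.40, 11.71, 10.17, 11.75 and 12.13. Des, the intermediate filament desmin, had 8.92, 9.52, 7.49, 9.94 and 10.28. Myot, the Z-disc protein myotilin, had 9.17, 9.75, 7.43, 9.96 and 10.59, in the same order of animals. All 16 members above the floor had an SD over 0.5, as did 15.3% of the 7518 genes above the floor, and 11 had an SD over 1, as did 1.93%. After quantile normalization all 16 were highest in control 5 and 15 were lowest in control 3. The shares over all genes above the floor for the highest value were 20% in control 1, 12.9% in control 2, 26.7% in control 3, 12.5% in control 4 and 27.8% in control 5. For the lowest value they were 18.1%, 13.8%, 24.2%, 12% and 31.9% in the same order of animals. Counts for other lists after quantile normalization, given below, are to be read against these shares. Without control 3 the range of the list median over animals was 1.89, against 3.50 with it. The range of the secretory list was 2.66 with and without control 3, so the wider of the 2 lists depended on that array.

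Most genes of the muscle fibre's calcium handling and energy supply lay in the same order of animals as the sarcomere medians, 13 of the 19 above the floor on the deposited scale. On that scale control 3 was lowest for 79.1% of all genes above the floor. The share of all genes that lay in this full order was not counted. The excitation and energy list had medians of 6.47, 6.92, 5.71, 7.19 and 7.76, and 18 of its 19 members above the floor were highest in control 5 after quantile normalization. Slc25a4, the mitochondrial ADP/ATP carrier of muscle, averaged 10.94 ± 0.63 and was an exception, lowest in control 3 but highest in control 4 (11.51, against 11.42 in control 5). Mb, which encodes the oxygen-binding myoglobin, had 10.26, 10.94, 8.96, 10.86 and 11.36, with control 2 above control 4. The nuclear-encoded respiratory chain list, which is not particular to muscle, had medians of 7.63, 7.98, 6.85, 8.27 and 8.58, with 40 of 41 members highest in control 5 and 40 lowest in control 3. Csrp3, a muscle LIM protein of the Z-disc, had the largest SD of the sarcomere list, at 1.77, with 7.90, 8.32, 5.40, 8.61 and 10.32. Genes of the neuromuscular junction were dimmer, with 4 of 15 above background. Chrne, the adult acetylcholine receptor subunit, had 6.46, 7.02, 4.41, 6.66 and 8.12, again lowest in control 3 and highest in control 5.

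Fast isoforms were bright and most slow isoforms were dim. Among myosin heavy chains, Myh4 (type IIB fibres) averaged 10.37 ± 0.64, Myh1 (type IIX) 10.07 ± 1.21, Myh2 (type IIA) 8.71 ± 2.16, the perinatal Myh8 8.33 ± 0.79, the embryonic Myh3 5.74 ± 0.32 and the slow Myh7 4.30 ± 0.43. These genes are close copies of one another, so probes may be shared between them and the single values are uncertain. In the slow list only Sln (9.85 ± 1.43), Atp2a2 (9.73 ± 0.82), Tpm3 (7.98 ± 0.41) and Myl2 (7.68 ± 0.28) were above background, and the first 3 are also used outside slow fibres. The slow troponins Tnnt1 (6.14 ± 1.42), Tnni1 (5.10 ± 0.86) and Tnnc1 (4.42 ± 0.25) were not.

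Fibre-type genes did not all follow the order of the sarcomere list. Myh4 had 10.50, 10.43, 9.67, 11.34 and 9.91, highest in control 4 and second lowest in control 5. Pvalb, the calcium buffer of the fastest fibres, had 8.96, 8.58, 7.88, 10.63 and 8.74. Actn3, the Z-disc actinin of fast fibres, had 6.32, 6.28, 6.10, 8.32 and 6.54. Control 4 was highest for each of these 3 genes, by 0.84, 1.67 and 1.78 log2 units over the next animal. Myh2 had 9.09, 9.63, 4.95, 9.48 and 10.43, so control 5 was highest and control 3 stood 4.14 below the next animal. Without control 3 the SD of Myh2 was 0.56, against 2.16 with it. In the fast list as a whole, 12 members were highest in control 5 and 6 in control 4 after quantile normalization.

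The sequence before the start of bright muscle genes is shown because it holds motifs that myogenic factors are known to bind. RefSeq promoters (build GRCr8) were searched over 250 bases before the start, on both strands, for TATAAA (the TATA box), CAGCTG (an E-box, read by the MyoD family), the CArG box (read by serum response factor) and ATGNATA (a Pit-1-like motif of pituitary promoters). The last 150 bases before the start of Acta1 (chr19:68784195-68784344 on the minus strand) and Atp2a1 (chr1:190475411-190475560 on the minus strand) read, with matches in capitals:
Acta1: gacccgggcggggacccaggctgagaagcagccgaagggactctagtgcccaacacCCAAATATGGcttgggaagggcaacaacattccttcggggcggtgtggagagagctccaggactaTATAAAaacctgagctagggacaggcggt
Atp2a1: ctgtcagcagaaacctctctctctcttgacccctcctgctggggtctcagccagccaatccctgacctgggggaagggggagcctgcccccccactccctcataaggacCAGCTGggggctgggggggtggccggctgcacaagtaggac
In Acta1 the capitals mark a CArG box that starts 94 bases before the gene's start and a TATAAA that starts 29 bases before it. In Atp2a1 they mark a CAGCTG that starts 41 bases before the start. Of 72 measured genes of the muscle lists, 60 matched a promoter, and 24 of these (40%) held CAGCTG, among them Ckm, Des, Casq1, Myl11 and Cox6a2. Over all 27457 genes with a promoter, 12.9% held it. TATAAA was found for 28.3% of the muscle genes, 25.3% of the 79 matched genes among the 100 brightest, 12.9% of 31 ribosomal genes and 14.1% of all. The CArG box was found for 6.67% of the muscle genes and 1.62% of all, and ATGNATA for 6.67% and 9.29%. A match is a string of letters in this window and was not tested as a binding site.

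The squamous epithelium was bright and more even between animals than muscle. Its list had medians of 8.25, 8.28, 7.71, 8.27 and 7.47, a range of 0.81, and 20 of 24 members were above background. Krt4, a keratin of non-cornified mucosa, had 11.26, 11.25, 10.90, 11.21 and 10.82. Krt15, a keratin of basal cells, had 11.07, 11.10, 11.21, 11.12 and 10.67. Perp, a desmosome protein, averaged 10.14 ± 0.34 and the adhesion gene Cdh1 9.52 ± 0.41. Control 5 was lowest for 19 of the 22 members above the floor after quantile normalization, and control 3 was highest for 14, the reverse of their places in the sarcomere list. On the deposited scale 11 of these members were highest in control 1, 1 was highest in control 3 and 14 were lowest in control 5, so the place of control 3 depended on the scaling. Krt18, a keratin of simple epithelia, had the largest SD of the list (0.64), with 7.72, 7.28, 6.49, 6.78 and 6.10. Krt13, a partner of Krt4, had 10.05, 9.76, 9.25, 9.75 and 8.62, also lowest in control 5.

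Genes of the cornified envelope, the crosslinked shell of the outermost epithelial cells, were bright in part. Calml3 (10.54 ± 0.33), a calmodulin-like protein of epithelia, Sprr1a (9.37 ± 0.62) and the plakin Ppl (8.40 ± 0.33) were bright, while 10 of 18 members were not above background, Ivl among them (3.68 ± 0.19). Sprr3 had 6.44, 6.42, 5.83, 6.10 and 3.61, and control 5 was 2.22 below the next animal. Aqp3 and Aqp4, water channels of epithelia and, for Aqp4, also of fast muscle, averaged 9.64 ± 0.35 and 8.48 ± 0.66.

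Secreted airway and gland products had the brightest named gene and also the named gene with the largest SD above the floor. The list had medians of 8.35, 7.34, 6.91, 5.69 and 6.66, highest in control 1. After quantile normalization 15 of its 22 members above the floor were highest there, and 9 were lowest in control 4. The shares of all genes above the floor were 20% and 12%. The range of the list median over animals was 2.66, and it was 1.65 without control 1 and 1.69 without control 4. Of these 22, 19 had an SD over 0.5 and 12 an SD over 1, against 15.3% and 1.93% of all genes above the floor. Bpifa1, a surface-active airway protein, had 11.91, 11.62, 7.52, 9.55 and 11.04. Scgb1a1 had 11.56, 11.39, 8.37, 10.77 and 11.02, with control 3 set apart at the low end. Its SD was 0.36 without control 3 and 1.30 with it.

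Salivary-type products followed another order of animals. Lipf had 12.28, 11.70, 11.62, 8.79 and 11.87, and Csap1 had 11.77, 11.49, 10.33, 8.97 and 11.46, so that control 4 was lowest for both. Dmbt1, a mucosal scavenger receptor that binds bacteria, had 11.09, 10.65, 9.66, 7.57 and 10.52, and Bpifb2, a relative of the bactericidal proteins, had 9.26, 8.35, 7.24, 4.76 and 6.89. Control 4 was again lowest. Bpifa2f, a relative of the parotid secretory protein, had the largest SD of all genes above the floor, 3.07, with 11.04 and 10.83 in controls 1 and 2 and 5.12, 4.70 and 6.66 in controls 3 to 5. Its lowest value in the first 2 animals was 4.17 above the highest value of the other 3. Tff2, a trefoil peptide of mucous cells, was an exception, with 6.18, 5.67, 8.93, 5.69 and 6.77 and its highest value in control 3. Gland genes with smaller SDs were Wfdc2 (8.96 ± 0.76), which encodes a protease-inhibitor-like protein, Pigr, the transporter of secreted antibodies (9.14 ± 0.85), and Aqp5, the water channel of serous cells (7.71 ± 0.69).

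The last 150 bases before the start of 3 of the 45 brightest named genes, all secretory, are shown because they differ in holding TATAAA. They are those of Scgb3a1 (chr10:34469016-34469165 on the plus strand), Scgb1a1 (chr1:215409687-215409836 on the minus strand) and Bpifa1 (chr3:163087815-163087964 on the plus strand), with any TATAAA in capitals:
Scgb3a1: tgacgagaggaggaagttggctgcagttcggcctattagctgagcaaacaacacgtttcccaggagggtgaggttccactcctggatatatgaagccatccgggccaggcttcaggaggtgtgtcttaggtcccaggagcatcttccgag
Scgb1a1: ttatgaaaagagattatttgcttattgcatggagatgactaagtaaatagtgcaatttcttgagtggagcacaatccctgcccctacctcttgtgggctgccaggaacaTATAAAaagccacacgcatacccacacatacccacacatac
Bpifa1: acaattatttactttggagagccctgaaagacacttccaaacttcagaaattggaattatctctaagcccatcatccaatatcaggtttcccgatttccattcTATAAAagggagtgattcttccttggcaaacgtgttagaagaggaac
TATAAA starts 41 bases before the start in Scgb1a1 and 47 bases before it in Bpifa1. None of the 4 motifs was found in the 250 bases before the start of Scgb3a1. Other forms of a TATA box were not sought. Of the 31 measured secretory genes, 25 matched a promoter and 32% of these held TATAAA.

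Ciliated cells were represented by dim genes that differed between animals. The motile cilia list had medians of 5.32, 5.36, 3.82, 4.39 and 3.55, and 1 of its 22 members, Tppp3, was above background on all 5 arrays. Spag6l, part of the ciliary central apparatus, had 7.33 in controls 1 and 2 and 4.72, 5.70 and 4.26 in controls 3 to 5. Zmynd10, a factor for dynein assembly, had 6.47, 6.23, 4.99, 5.49 and 4.52. Foxj1, the master regulator of motile cilia, was not above background (SD 0.41), though it was highest in control 2 and second highest in control 1. Among the 30 genes with the largest SD, Dnai3, Spata18 and Sec14l3 had their highest values in controls 1 and 2 as well, and so did Cyp2a3, a cytochrome P450 of the rat airway, with 9.87, 8.65, 4.30, 6.55 and 4.36. Aurkb, known as a mitotic kinase, had 8.48, 8.38, 6.08, 6.96 and 4.64, while the other cell cycle genes above the floor had SDs of at most 0.34. Mlf1 of the cilia list had 5.80, 6.22, 4.01, 6.82 and 7.57, which is the order of the sarcomere list.

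The matrix genes of the lamina propria were bright in all 5 animals. The list had medians of 7.10, 7.43, 7.01, 7.62 and 6.97, and 35 of its 43 members were above background. Dcn had 11.63, 11.64, 11.42, 11.89 and 11.68. Sparc, a collagen-binding matrix protein, averaged 10.43 ± 0.27, biglycan (Bgn) 9.64 ± 0.37, fibronectin (Fn1) 9.59 ± 0.42, Col1a2 9.51 ± 0.37, Col3a1 9.08 ± 0.43, Col1a1 8.54 ± 0.29, lumican (Lum) 8.93 ± 0.49 and elastin (Eln) 7.27 ± 0.25. The hyaluronan synthase Has2 averaged 5.52 ± 0.40 and was not above background, while Cd44, a receptor for hyaluronan, averaged 8.97 ± 0.29. Mgp, an inhibitor of calcification, had 10.88, 9.94, 9.22, 10.34 and 11.28. In this list 8 of the 38 members above the floor had an SD over 0.5, as did 15.3% of all genes above the floor, and the median SD over its measured members was 0.39, against 0.32 for all genes above the floor. Fmod, the proteoglycan fibromodulin, had the largest, 1.24, with 7.10, 4.67, 7.36, 7.05 and 5.24, with controls 2 and 5 lowest, as for the cartilage genes.

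Some cartilage genes were higher in controls 1, 3 and 4 than in controls 2 and 5. On the deposited scale this held without overlap for 8 of the 23 measured members and not for the other 15. The grouping of animals was read from these same values, and the share of all genes with this separation was not counted. Of the 8, 4 were among the 10 above the floor. Of those 10, 7 were lowest in control 2 and 1 in control 5 after quantile normalization. Chad, a collagen-binding protein of cartilage, had 8.79, 9.14 and 9.30 in controls 1, 3 and 4, and 4.59 and 5.46 in controls 2 and 5, with no overlap. Cytl1 had 6.65, 7.59 and 6.59 in controls 1, 3 and 4 and 4.55 and 5.20 in controls 2 and 5. Acan, the proteoglycan aggrecan, had 6.0, 5.72 and 5.52 against 4.26 and 4.76, and Cnmd, which encodes chondromodulin, 5.32, 5.69 and 5.46 against 3.14 and 3.82, in the same animals. Col2a1, the main collagen of hyaline cartilage, had 5.61, 5.13, 5.27, 5.43 and 5.57 in controls 1 to 5, was not above background and differed by 0.48 at most. Only Prg4, Sox6 and Col11a2 of the 23 measured cartilage genes were above background, and Sox6 was lowest in control 3, at 5.66, and highest in control 4, at 6.42. Ecrg4, a secreted peptide gene, and Scgb3a2, a secretoglobin, were also highest in control 3 and lowest in control 2, at 7.71 and 5.49 for Ecrg4 and 7.73 and 5.02 for Scgb3a2.

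Vessel genes were detected in all 5 animals. Cdh5, the endothelial cadherin, averaged 7.96 ± 0.46 and Pecam1 5.87 ± 0.30. Pdpn, Ccl21 and Lyve1, which lymphatic vessels express, averaged 8.13 ± 0.33, 7.77 ± 0.31 and 7.62 ± 0.54. Lyve1 was also in the macrophage list, and these values were not traced to a cell type. Of the endothelial list 14 of 26 members were above background, and 1 of 18 above the floor had an SD over 0.5, against 15.3% of all genes above the floor. The pericyte gene Rgs5 averaged 8.10 ± 0.39 and the smooth muscle actin Acta2 7.70 ± 0.27. Of the smooth muscle and pericyte list 3 of 10 members above the floor had an SD over 0.5: Synpo2 (0.73), Lmod1 (0.66) and Abcc9 (0.56). As deposited each of the 3 was highest in control 5 and lowest in control 3, where 79.1% of all genes above the floor were lowest. After quantile normalization 1 of the 10 members was lowest in control 3, while 4 were highest there and 4 in control 5. Haemoglobin was detected, with Hba-a1 at 9.90, 9.76, 8.67, 9.08 and 10.13.

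Immune cells were mainly seen through macrophage genes. The macrophage and dendritic cell list had medians of 6.23, 6.04, 5.97, 6.58 and 7.29, and 18 of its 21 members above the floor were highest in control 5 after quantile normalization. Cd74, the invariant chain of antigen presentation, had 9.66, 9.56, 9.32, 9.63 and 10.20. The scavenger receptors Mrc1 and Cd163 had 7.75 and 7.68 in control 5 and at most 7.29 and 6.65 in the other 4. Ptprc, the pan-leukocyte CD45, had 6.23, 5.94, 6.04, 6.56 and 7.54. Without control 5 the range of the list median was 0.61, against 1.31 with it. The mast cell protease gene Mcpt1 ran otherwise, at 9.33, 9.48, 8.14, 9.33 and 7.02, lowest in control 5. T cell receptor genes were dim, with Cd3e at 4.20 ± 0.61 and Cd3g at 2.25 ± 0.44, and 2 of 20 T and NK cell genes were above background. They were Cd4, which rat macrophages also express, and Cd7. Cd7 had 8.82 and 8.50 in controls 1 and 2 and at most 7.2 in the other 3, and the cilia list was also highest in controls 1 and 2.

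Anterior pituitary hormones were represented unevenly. Prl, which encodes prolactin, had 12.38, 12.10, 10.79, 10.76 and 11.16 in controls 1 to 5. Gh1, the growth hormone gene, had 9.57, 7.51, 6.54, 5.74 and 6.04. Cga, the subunit common to the glycoprotein hormones, had 8.10, 6.60, 6.11, 5.71 and 5.61. On the deposited scale control 1 was highest for all 7 hormone genes measured, and control 2 was second for each of them except Pomc. Only 3 of the 7 were above the floor. Of all genes above the floor, 23.7% were highest in control 1 on that scale. Prl and Gh1 were above background, though Gh1 was close to the brightest background probe set of its own array in controls 4 and 5, where that probe set had 5.24 and 5.70. Lhb averaged 5.11 ± 0.41, Pomc 3.47 ± 0.47, Tshb 3.31 ± 0.51 and Fshb 2.64 ± 0.43. Genes of pituitary regulators and secretory granules were mostly dim, with 2 of 20 above background. Gal, the peptide galanin, had 7.77, 6.93, 5.07, 3.70 and 4.25, and the granule protein gene Scg2 7.18, 5.57, 4.25, 3.69 and 3.42, each with control 1 highest and control 2 next. Rbp4 and Dlk1, the members above background, averaged 6.48 ± 0.77 and 5.91 ± 0.58 and were also highest in control 1.

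**Figure D3:**
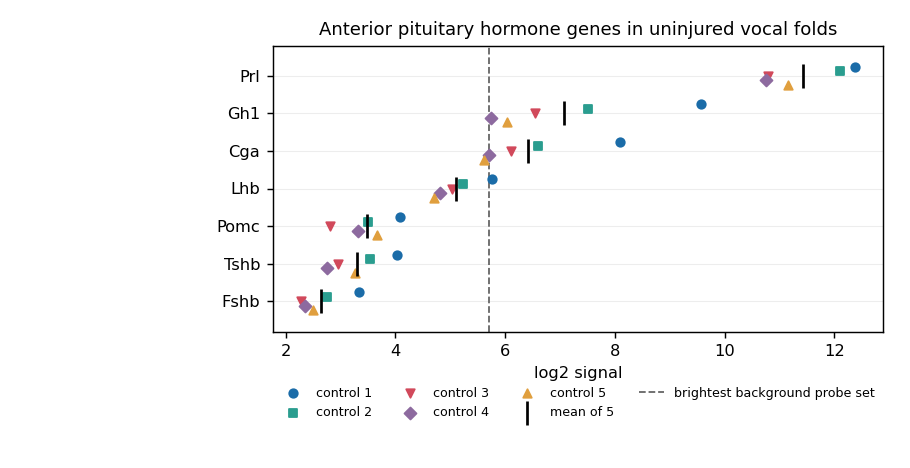
Log2 signal (horizontal axis) of the 7 measured anterior pituitary hormone genes in each uninjured animal, with a black bar at the mean of 5 and a dashed line at the highest value of a background probe set on any control array (5.70). Prl lies above 10.7 in all 5 animals, Gh1 and Cga spread from near the line to 9.57 and 8.10 in control 1, and Lhb, Pomc, Tshb and Fshb lie near or below the line.

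Genes of neighbouring or distant organs were mostly near background. None of 16 liver genes and none of 15 pancreas genes was above background, with list medians between 2.59 and 2.84 and between 3.49 and 3.87 over the animals. Thyroglobulin (Tg, 4.17 ± 0.31), Pax8 (2.93 ± 0.13) and the parathyroid hormone gene Pth (1.87 ± 0.28) were dim. In the thyroid list Duox2 (8.51 ± 0.52), Duoxa2 (8.30 ± 0.43) and Nkx2-1 (6.09 ± 0.25) were above background, and all 3 are also used in airway epithelium. Of 20 Schwann cell and axon genes 5 were above background, the brightest being Pmp22 (9.51 ± 0.57), which is also expressed outside nerve.

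Clock and stress genes varied between animals as well. Bmal1 and Npas2, activators of the circadian clock, had 4.41 and 4.70 in control 1 and 5.77 to 6.36 and 5.94 to 6.61 in the other 4. Their targets Per2 (8.11, 7.15, 6.37, 6.22 and 6.46), Per3 (7.79, 7.06, 6.05, 6.49 and 6.45) and Dbp (9.70, 8.85, 7.61, 8.65 and 8.96) were highest in control 1. The time of day at which tissue was taken was not used here, and its part in these values was not tested. Pdk4, the kinase that spares glucose in fasting muscle, had 5.73, 4.67, 4.30, 6.0 and 9.12, so control 5 was 3.12 above the next animal. Control 5 was also highest for Lcn2 (9.77), the metallothionein Mt2A (11.07) and Cebpd (7.64), all known to respond to glucocorticoids or inflammation. Of the immediate early genes, Atf3 had 6.13, 7.34, 8.07, 6.68 and 6.35, and Fos had 8.17, 7.89, 8.95, 7.71 and 7.83, each highest in control 3. In that list 14 of 18 members above the floor were highest in control 3 after quantile normalization and 5 as deposited. Of the ribosomal genes, 31 of 38 were highest in control 3 on the normalized scale and 0 as deposited, where 34 were lowest there. These orders depended on the scaling.

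Fat, antigen presentation and chaperone genes also had members in the brightest 10%. Of 19 adipocyte genes 7 (36.8%) were above background, as were 37.4% of all named genes. Fabp4, a fatty acid carrier of fat cells and small vessels, had 6.54, 8.0, 6.43, 8.53 and 8.86, and Car3, a carbonic anhydrase of fat and slow muscle, had 4.87, 7.47, 5.24, 7.29 and 5.96. Controls 1 and 3 were lowest for both. Adipoq of the same list, with a mean below the floor, was highest in control 2 and lowest in control 5. Its range was 4.42. The antigen presentation list had medians of 5.83, 5.76, 5.69, 6.01 and 6.74. After quantile normalization 11 of its 14 members above the floor were highest in control 5, as were 27.8% of all genes above the floor. Control 5 also had the highest macrophage list, which shares Cd74 and Ciita with the antigen presentation list. Of 15 heat shock and stress genes 11 were above background, with Hspa8, a constitutive chaperone, at 11.34, 11.17, 10.65, 11.16 and 11.15. Of 25 interferon-stimulated genes 9 (36%) were above background, near the share of all named genes, and 1 was in the brightest 10%.

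**Figure D4:**
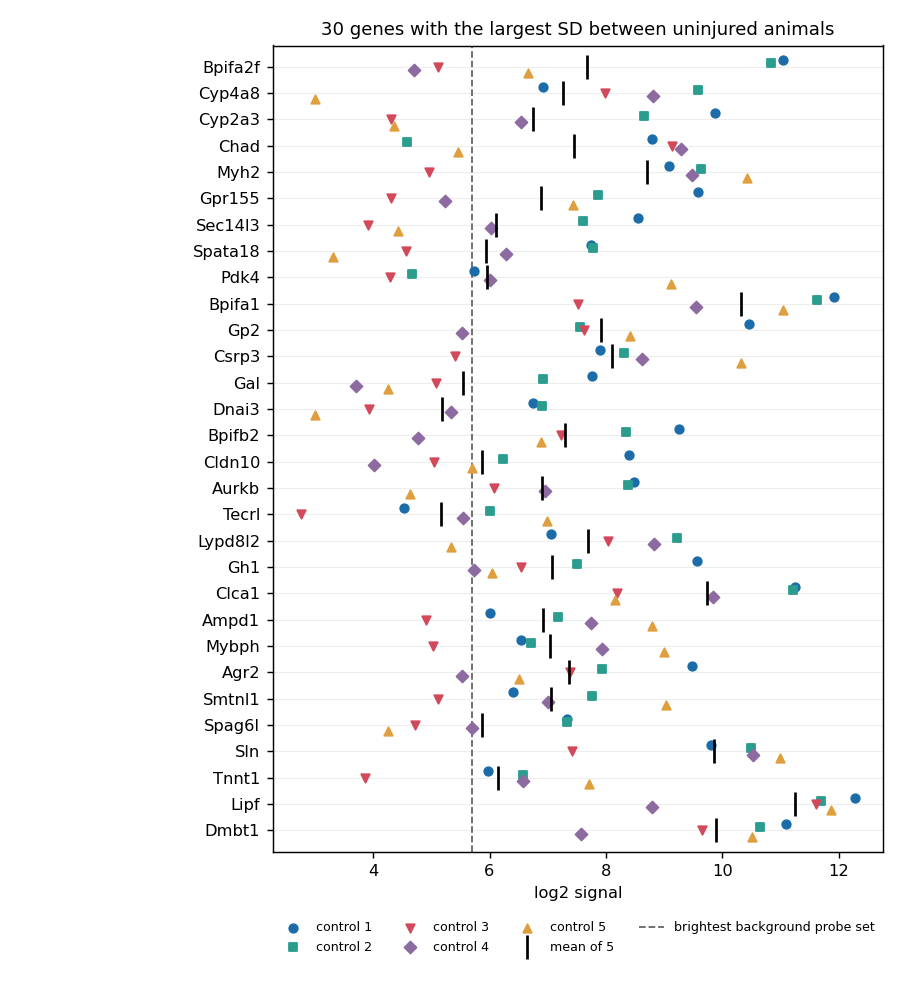
Log2 signal (horizontal axis) of the 30 genes above the floor with the largest SD, in each uninjured animal, in order of SD, with a black bar at the mean and a dashed line at the highest value of a background probe set on any control array. Bpifa2f, Cyp2a3, Spata18 and Spag6l have controls 1 and 2 at the high end, Chad has controls 1, 3 and 4 there, and Myh2, Csrp3 and Sln have control 3 at the low end.

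Over all named genes the SD between the 5 animals had a median of 0.284. Of the 7518 genes above the floor, 1151 had an SD over 0.5 and 145 an SD over 1. Without control 3 these counts were 627 and 81 and the median SD was 0.206. After quantile normalization the counts were 655 and 77. The injured arrays had medians of 0.233 at 1 week, 0.256 at 4 weeks and 0.236 at 8 weeks, also from 5 arrays each. With all 5 arrays the controls thus had the highest median. Without the array numbered 3 in each injured group, the medians were 0.227, 0.260 and 0.236, against 0.206 in the controls. In the controls that array was left out for its low distribution, and no injured array was picked in this way. The 30 largest SDs ran from 1.40 to 3.07. Of these 30 genes, 7 were in the secretory list, 5 in the sarcomere, fast or slow fibre lists, and 12 in no list. Cyp4a8, a fatty acid hydroxylase of the cytochrome P450 family and in no list, had the second largest SD, 2.58, with 6.92, 9.58, 7.99, 8.80 and 3.0, so control 5 was 3.92 below the next animal.

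**Figure D5:**
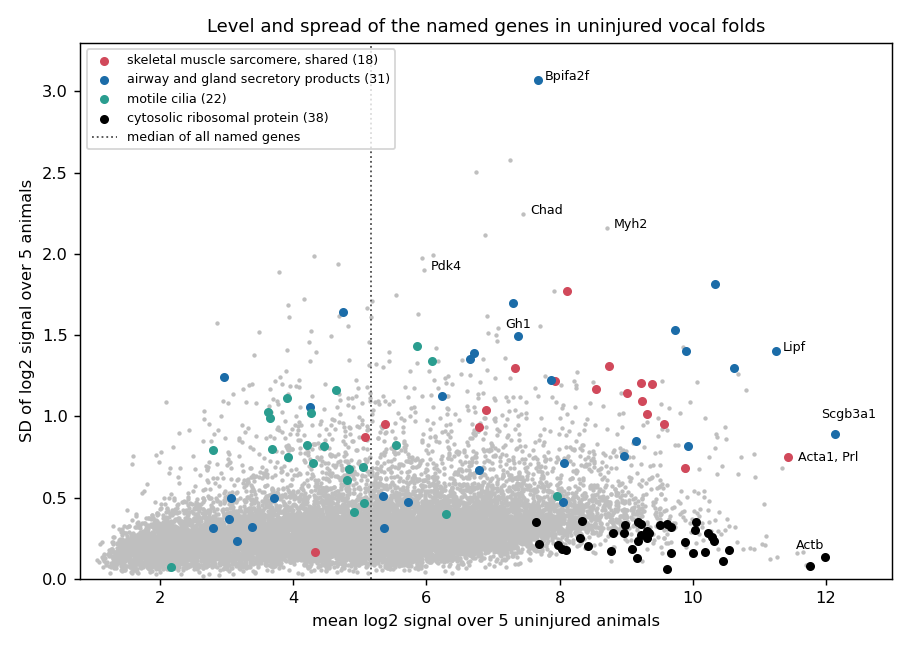
SD between the 5 uninjured animals (vertical axis) against mean log2 signal (horizontal axis) for each of the 15037 named genes (grey), with the members of 4 lists in colour and the floor as a dotted line. Ribosomal genes (black) lie at high signal and low SD, sarcomere genes (red) and secretory genes (blue) reach SDs over 1 at high signal, and cilia genes (green) lie at lower signal with SDs up to 1.43.

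On the deposited scale ribosomal and cytoskeletal genes were among the most even bright genes. Rpl13a had the smallest SD of the brightest 10%, 0.06, with 9.62, 9.61, 9.61, 9.69 and 9.51. Actb (0.08), Rps29 (0.08), Rpl4, Rps26, Actg1, Ets2 and Mfsd1 followed, the last 5 with SDs of 0.11 or 0.12. Rpl13a was lowest in control 5 and not in control 3, and after quantile normalization its SD was 0.36. The median over all named genes was then 0.217, so the choice of even genes depended on the scaling. The ribosomal list had a median SD of 0.24 as deposited and 0.16 after quantile normalization. Gapdh, a common reference gene that is also a glycolytic enzyme, had 11.06, 11.21, 10.29, 11.44 and 11.36, an SD of 0.46.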

How the data were processed

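RNA of whole vocal folds from 20 rats was hybridized to Affymetrix Clariom rat arrays, 1 per animal. The deposited values are log2 signals per probe set, which the authors made with RMA (background correction, scaling between arrays and summary over probes). The study's methods name a Clariom S array, labelled cDNA and the Transcriptome Analysis Console with global scaling, while the labels give a Clariom D array and cRNA. Affymetrix Expression Console is the tool listed in the submitters' processing notes. The array distributions are not identical after this step; precision here is set by having 5 control arrays.

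Of 24871 probe sets, 1683 are manufacturer controls (68 with AFFX names, 63 spike-ins, and 1153 negative and 399 positive normalization controls, told by their names), 8139 have no single gene name here, and 15049 have 1 symbol. All 15049 matched a RefSeq gene by its identifier and 0 symbols changed. For 10 genes with several probe sets the brightest was kept. For each of 15037 genes the mean, SD and rank over the 5 control arrays were computed with pandas 2.3.3 and numpy 2.4.6 in Python 3.11.15. Quantile normalization of the 5 arrays used limma 3.58.1 in R 4.3.3, and figures used matplotlib 3.10.9. The floor was the median of the gene means, and SD thresholds were 0.5 and 1. The spread statistics were tested on simulated data.

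No p-value was computed, since the profile is a description of 1 group. The members and the 38 gene lists (889 genes, 739 measured) were chosen with earlier results of these data known. Genes were named by rule: the 30 brightest, the 30 with the largest SD above the floor and the 15 with the smallest SD in the brightest 10%, the 4 brightest and the most variable member of each list, the 6 genes farthest above and the 6 farthest below the other animals in each animal, and every anterior pituitary hormone. Other list members were named after their values were seen. Alternatives were median centring, quantile normalization, leaving out each array, other floors and sets, and another detection limit. Promoter sequences are those of RefSeq for build GRCr8.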

Additional observations from a re-analysis of the deposited data

Results flagged for a closer look

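Among 219 named genes and 38 list medians over the 5 uninjured animals, 15 genes and 2 lists had 1 animal set apart, judged by the gap to the nearest animal divided by the whole range, with a limit of 0.71 for 5 samples. For values that were not selected, chance alone does this for about 1 in 20 groups. Some of these genes were named because 1 animal lay far from the others or because their SD was large. That rate therefore does not apply to them, and no conclusion is drawn from the count. Genes that follow 1 animal are also not separate events. Of these 17, 8 were low in control 3, the array with the low distribution, and 4 were low in control 5.

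Muscle genes low in control 3 were Myl2 (gap over range 0.9685), Tpm3 (0.9186) and Myh2 (0.7557). The tubulin-binding protein gene Tppp3 (0.8721), the ribosomal genes Rpl17 (0.8196) and Rpl27 (0.7456), the secretoglobin Scgb1a1 (0.7509) and the chaperone Hspa8 (0.7259) were also low there. Sprr3 (0.7847), Krt15 (0.7431) and Eef1a1 (0.7189) were low in control 5, as was the transcription factor gene Pitx1 (0.7759), with 4.67 against 5.71 to 6.01 in the other 4 animals. Lipf (0.8102) was low in control 4, at 8.79 against 11.62 to 12.28.

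Genes set apart at the high end were Psmb9, an immunoproteasome subunit, in control 5 (0.8513), at 6.32 against 5.26 to 5.42, and Actn3 in control 4 (0.8019). The median of the erythroid list was high in control 3 (0.7246), at 4.78 against 3.84 to 4.10, while Hba-a1 was lowest in that animal. The median of the immediate early list was low in control 1 (0.7286), at 6.13 against 6.48 to 6.62.

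Outside the named genes, 2157 of 8139 probe sets with no gene name here were above background on all 5 control arrays, and 49 of the 100 brightest probe sets other than manufacturer controls were unnamed.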

How the results depend on the processing

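Counts of variable genes, the detection limit and some list ranges moved with the processing. With 1151 genes over an SD of 0.5 and 145 over 1 as the reported values, centring each array on its median gave 723 and 96, quantile normalization gave 655 and 77, a floor at the upper quartile gave 738 and 95, and no floor gave 1734 and 222. All probe sets other than manufacturer controls gave 238 over an SD of 1. Leaving out each animal in turn gave 627 to 1463 genes over 0.5 and 81 to 204 over 1, the lowest of each without control 3. The range of the sarcomere median over animals was 1.886 to 3.496 in these fits, the lowest without control 3. The range of the secretory median was 1.6498 to 2.6567, the lowest without control 1, and 1.394 with the mean over members in place of the median. With the 500 brightest genes in place of 100, 323 were so on every array, against 51. With the 95th percentile of the negative normalization controls as the detection limit, an alternative chosen after seeing the data, 2197 genes were detected on all 5 arrays, against 5625. The cause was not tested beyond the construction of each alternative. Of the values for the other lists, 9 moved by more than their spread or 1.5 times, among them the fast fibre range, which was 1.06 without control 3, the ribosomal range, 0.64 as reported, 0.23 with centring and 0.20 without control 3, and the macrophage range, 0.61 without control 5, and 143 did not. All 1533 means of named genes computed under centring, quantile normalization and leaving out an animal stayed within 1 SD. Centring leaves these means unchanged, and leaving out 1 of 5 arrays cannot move a mean by 1 SD. Only quantile normalization could therefore have moved them that far. The count above background has no value after quantile normalization, which left out the control probe sets. No paired analysis was possible because no group was compared with another.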
